A study of Mus musculus with 16 samples.

Results

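Genes of the MHC class II antigen presentation pathway were examined in RNA from the brains of mice with experimental autoimmune encephalomyelitis (EAE) and of PBS-treated mice. The 10 genes were named as a set by their function, with earlier results of these data known. They were the class II chain genes H2-Aa, H2-Ab1 and H2-Eb1, the invariant chain gene Cd74, the peptide exchange genes H2-DMa and H2-DMb1, the regulator Ciita, and the costimulatory genes Cd80, Cd86 and Cd40. All 10 were among the 21878 genes of the expression tables, and all 10 passed the count filter that left 17885 genes for testing. Both groups were female wild-type C57BL/6 mice, 8 weeks old, with 8 mice and 8 libraries in each. EAE mice were immunized with the myelin peptide MOG35-55 in complete Freund's adjuvant and received pertussis toxin, whereas control mice were injected with PBS, and brains were taken at the peak of disease. The groups thus differed in peptide, adjuvant and toxin together, and the effects of these cannot be told apart. The labels write a different last residue of the MOG peptide for each EAE mouse, while the protocol gives residue 55. Cells were sorted as CD11b+ CD45int after a density gradient, and the labels call them microglia.

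MHC class II molecules are pairs of an alpha and a beta chain that carry peptides from the endosome to the cell surface, where CD4 T cells read them. The invariant chain occupies the groove of a newly made molecule, the cathepsins trim it, and the H2-DM heterodimer exchanges the remaining fragment for a peptide. The transactivator encoded by Ciita switches on the genes of the class II chains, the invariant chain and H2-DM, for example under interferon gamma. Microglia, which carry little class II at rest, are known to raise it in EAE. A T cell also needs costimulation, which CD80 and CD86 give through CD28, while CD40 on the presenting cell receives the signal of CD40 ligand.

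Class II genes are known for a shared promoter layout, the X box followed by the Y box, at which the RFX and NF-Y complexes assemble for CIITA. RefSeq promoter windows of GRCm38.p6, reaching 250 bases before to 50 bases after a transcript start, were at hand for 5 of the 10 genes (H2-Aa, H2-Eb1, H2-DMa, H2-DMb1 and Cd80). They were searched on both strands for the letters TNGNAAC, taken as an X box core, and ATTGG, the Y box core, which do not overlap each other. These letters were set after the sequences had been read. TNGNAAC alone was found in 35.2% and ATTGG alone in 37.4% of all 32817 windows, whereas the X letters followed within 40 bases by the Y letters on 1 strand were found in 496 windows (1.51%). H2-Aa, H2-Eb1 and H2-DMb1 held the pair, with 28, 27 and 28 bases between the motifs and with the X letters starting 83, 93 and 96 bases before the RefSeq start. Neither window of H2-DMa nor that of Cd80 held it. The stretch of H2-DMb1 (chr17:34153075-34153154) is not shown, because it lies inside the gene as annotated (chr17:34153072-34160230). The stretches of H2-Aa (chr17:34287847-34287926, minus strand) and H2-Eb1 (chr17:34305754-34305832, plus strand) are shown because they carry this layout, together with that of H2-Ob (chr17:34238796-34238872, plus strand, 25 bases between the motifs), a class II locus gene that is hardly expressed here. Capitals mark the X and Y letters.
H2-Aa: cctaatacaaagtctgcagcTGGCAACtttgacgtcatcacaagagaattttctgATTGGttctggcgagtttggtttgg
H2-Eb1: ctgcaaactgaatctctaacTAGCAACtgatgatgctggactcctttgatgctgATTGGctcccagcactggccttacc
H2-Ob: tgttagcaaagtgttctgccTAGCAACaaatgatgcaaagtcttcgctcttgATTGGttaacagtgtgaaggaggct
The sequence match describes letters only, and binding at these stretches was not measured.

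The libraries held 24587443 to 30244215 counted reads in EAE mice and 26031889 to 34184576 in PBS-treated mice. Their content went against a pure sort of microglia: the mean FPKM (a read count scaled to the length of the gene and the depth of the library) of the neuron, astrocyte and oligodendrocyte marker lists exceeded that of the 16 microglia markers in 16 of 16 libraries. The 16 microglia markers, such as Tmem119 and P2ry12, were nevertheless detected in every library, with a summed FPKM of 220 to 361 in EAE mice and 205 to 341 in PBS-treated mice. In such bulk RNA, more cells of a type and more RNA per cell cannot be told apart. EAE 6, 7 and 8 and PBS 5, 7 and 8 resembled each other more closely within their group than other libraries did (median absolute log2 difference over 7752 genes of 0.0518 to 0.0622, against 0.0851 to 0.197 for other pairs), so differences are also given within these libraries and within the other 5 of each group. The closely alike libraries were picked by this likeness in the same data, so a small spread within them, and with it small p values, was built in.

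Class II genes were expressed at a low level in both groups, and no gene of the set passed the test between EAE mice and PBS-treated mice. In edgeR's quasi-likelihood test, 0 of 10 genes were called at an adjusted p under 0.05 with an absolute log2 fold change (log2FC) over 1, the study's own thresholds, beside 0.117% of all genes tested. With the adjusted p alone, 0 of 10 were called beside 2.42% of all genes. At an unadjusted p under 0.05, 2 of 10 genes, H2-Ab1 and Cd80, were higher in EAE mice, a share near the background of 17.4%. DESeq2 called 1 gene, H2-Ab1, at its adjusted p. The estimates of 9 of 10 genes were above 0, compared with 52.7% of all genes tested, and the median log2FC was 0.16 beside 0.0092 over all genes. The 16 microglia markers moved alike, with 15 of 16 estimates above 0 and a median log2FC of 0.16, and Trem2 was called among them (log2FC 0.56, SE 0.132, edgeR adjusted p 0.0282). With libraries scaled to these markers, 6 of the 10 genes had an estimate above 0.

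**Figure D1:**
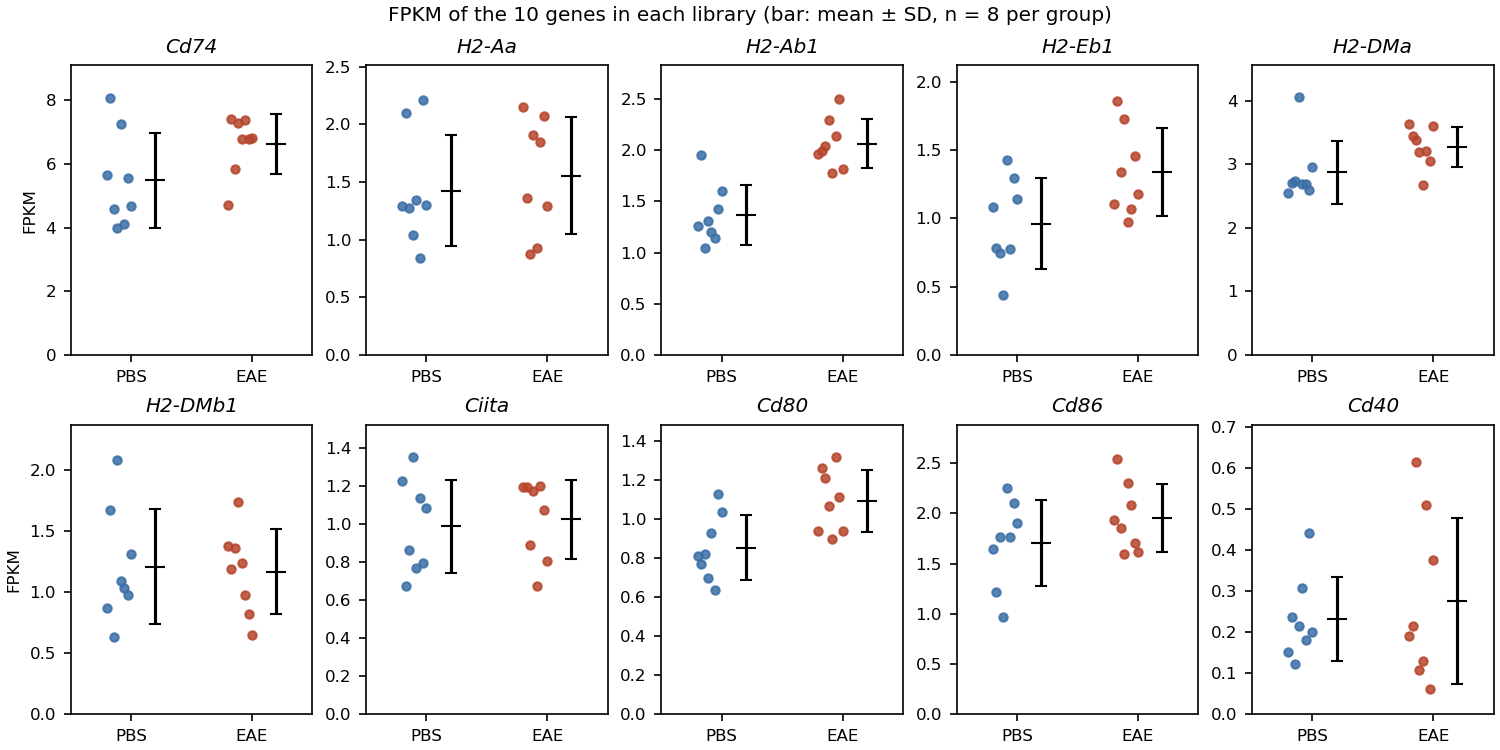
FPKM of each of the 10 genes (y axis from 0, own scale per gene) in the 8 PBS and 8 EAE libraries, 1 point per mouse, with the mean and SD as a bar beside the points. H2-Ab1 has 6 EAE mice above the highest PBS-treated mouse, while the points of the other genes overlap more widely.

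H2-Ab1, the beta chain of I-A (GRCm38 chr17:34257689-34269419, plus strand), had the highest log2FC of the set over all 16 libraries. Its FPKM was lowest at 1.77, median 2.02 and highest 2.50 in EAE mice, and 1.05, 1.28 and 1.95 in PBS-treated mice. All 8 EAE mice lay above the PBS median and 6 lay above the highest PBS-treated mouse, PBS 2, so the groups still overlapped. These values rest on 55 to 82 reads in a library of the EAE group and 34 to 77 in one of the PBS group. The mean was 2.07 ± 0.241 against 1.37 ± 0.292 (SD, n = 8 each), with an exact two-sided permutation p of 0.000466. edgeR gave a log2FC of 0.54 (SE 0.157, 95% interval 0.21 to 0.86) with an adjusted p of 0.0710. DESeq2 placed it past the threshold (log2FC 0.53, adjusted p 0.0285), as did edgeR without EAE 5 (adjusted p 0.0471), and the adjusted p over the 16 fits that each left out 1 library ran from 0.0471 to 0.134. Its log2FC was 0.58 within the closely alike libraries and 0.51 within the other 5 of each group. The spread of H2-Ab1 among EAE mice, a coefficient of variation of 11.7%, was close to the 12.4% that counting reads alone would give. Among PBS-treated mice it was 21.4%, against 14.2% from counting.

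H2-Aa, the alpha chain that pairs with H2-Ab1 (GRCm38 chr17:34282744-34287823, minus strand), ranged alike in both groups. Its FPKM was 0.875, 1.61 and 2.15 (lowest, median and highest) in EAE mice and 0.839, 1.30 and 2.22 in PBS-treated mice. The ranges of the groups nearly coincided, from 23 to 61 reads in EAE libraries and from 25 to 81 in PBS libraries. The log2FC was 0.067 (SE 0.240, 95% interval -0.43 to 0.57, edgeR adjusted p 0.920). The difference between the responses of H2-Aa and H2-Ab1 was itself not tested.

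H2-Eb1 encodes the beta chain of I-E (GRCm38 chr17:34305867-34316674, plus strand), which C57BL/6 mice cannot display because their H-2b haplotype lacks the I-E alpha chain. An antisense transcript, Gm20513, overlaps the gene. The alpha chain gene, listed as the pseudogene H2-Ea-ps, had 5 reads in all 16 libraries, of which 4 came from 1 EAE library. The FPKM of H2-Eb1 was 0.971, 1.26 and 1.86 in EAE mice and 0.438, 0.931 and 1.43 in PBS-treated mice. All 8 EAE mice exceeded the PBS median, and 3 exceeded the highest PBS-treated mouse. The mean was 1.34 ± 0.321 against 0.962 ± 0.331 (SD, n = 8 each, exact permutation p 0.0365), and the log2FC was 0.42 (SE 0.215, 95% interval -0.024 to 0.87, edgeR adjusted p 0.314). The exact permutation p rose to at most 0.0747 when 1 library was left out, with 7 of the 16 libraries each taking it past 0.05: EAE 2, 4 and 7 and PBS 2, 3, 4 and 6. The difference turned to -0.088 within the closely alike libraries and was 0.80 within the other 5 of each group.

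Cd74, the invariant chain (GRCm38 chr18:60803848-60812652, plus strand), had the highest mean FPKM of the 10 genes. Its FPKM was 4.70, 6.80 and 7.42 in EAE mice and 3.98, 5.12 and 8.07 in PBS-treated mice, and PBS 2 held the highest value of all 16. The mean was 6.63 ± 0.933 against 5.48 ± 1.49 (SD, n = 8 each, exact permutation p 0.0842). Without PBS 2 the exact permutation p was 0.0171, without EAE 1 it was 0.0348 and without PBS 5 it was 0.0420. In edgeR, 0 of 16 fits with 1 library left out passed (adjusted p 0.246 to 0.594). The log2FC was 0.22 (SE 0.142, 95% interval -0.076 to 0.52, edgeR adjusted p 0.453), with 0.23 and 0.21 within the closely alike and the other libraries. Mice differed by more than reads alone would give, with coefficients of variation of 14.1% and 27.1% against 6.33% and 6.50% from counting.

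Cd74 and the chain genes were compared from mouse to mouse within each group on log2(CPM + 0.5) values. In PBS-treated mice, Pearson's r of Cd74 with H2-Aa was 0.70 (permutation p 0.0527) and Spearman's rho 0.79 (permutation p 0.0270). Adjusted over the 6 relations, permutation p was 0.316 and 0.162. Without PBS 5 and PBS 2, the farthest libraries in Cd74, r was 0.77. The relations with H2-Ab1 and H2-Eb1 in PBS-treated mice were at r 0.52 and 0.50 (rho 0.40 and 0.67, permutation p of r 0.186 and 0.203), and at r 0.26 and 0.83 without those libraries. In EAE mice, r with H2-Aa, H2-Ab1 and H2-Eb1 was -0.10, 0.20 and 0.36 (rho -0.12, 0.12 and 0.31, permutation p of r 0.823, 0.630 and 0.409), and 0.33, 0.19 and 0.47 without EAE 3 and EAE 1. None of the 6 relations passed the threshold after adjustment.

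H2-DMa and H2-DMb1 encode the chains of the peptide exchange factor. H2-DMa (GRCm38 chr17:34119541-34139101, plus strand) reached an FPKM of 2.68, 3.30 and 3.64 in EAE mice and 2.54, 2.70 and 4.06 in PBS-treated mice. The highest value belonged to PBS 4, and the next PBS-treated mouse was at 2.95, below 7 of the 8 EAE mice. The mean was 3.27 ± 0.314 against 2.87 ± 0.495 (SD, n = 8 each, exact permutation p 0.0729), and without PBS 4 the exact permutation p was 0.00171. edgeR gave a log2FC of 0.14 (SE 0.0906, 95% interval -0.051 to 0.33, adjusted p 0.462), and the lowest adjusted p with 1 library left out was 0.0700. Within the closely alike libraries, H2-DMa passed the threshold with a log2FC of 0.23 and an edgeR adjusted p of 0.0469, compared with 0.079 and 0.905 within the other 5 of each group. In that fit of the closely alike libraries, 4147 of 17239 genes passed, beside 433 of 17885 in the fit of all libraries. The annotated gene overlaps the opposite-strand gene Brd2, which had 4921 to 9274 reads per library, and the strand setting of the counting is not given in the sources used here, so reads of H2-DMa and Brd2 may not be separated.

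H2-DMb1 (GRCm38 chr17:34153072-34160230, plus strand) had an FPKM of 0.646, 1.21 and 1.74 in EAE mice and 0.630, 1.07 and 2.09 in PBS-treated mice. Both ends of the PBS range lay outside that of EAE mice. The log2FC of -0.11 (SE 0.243, 95% interval -0.61 to 0.40, edgeR adjusted p 0.867) was the only estimate below 0 in the set. Its neighbour H2-DMb2 shares 27.2% of the 50-base words of the H2-DMb1 transcript, so the split of reads between the pair is uncertain. H2-DMb2 itself had 3 to 23 reads per library and a log2FC of 0.056 (SE 0.432).

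Ciita, the transactivator of the class II genes (GRCm38 chr16:10480059-10528418, plus strand), had an FPKM of 0.674, 1.12 and 1.20 in EAE mice and 0.677, 0.977 and 1.35 in PBS-treated mice. The lowest mice of both groups were at nearly the same level, and the highest was a PBS-treated mouse. The log2FC was 0.0059 (SE 0.150, 95% interval -0.31 to 0.32, edgeR adjusted p 0.991). Dexi overlaps it on the opposite strand, with 816 to 1250 reads per library against 153 to 292 for Ciita.

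**Figure D2:**
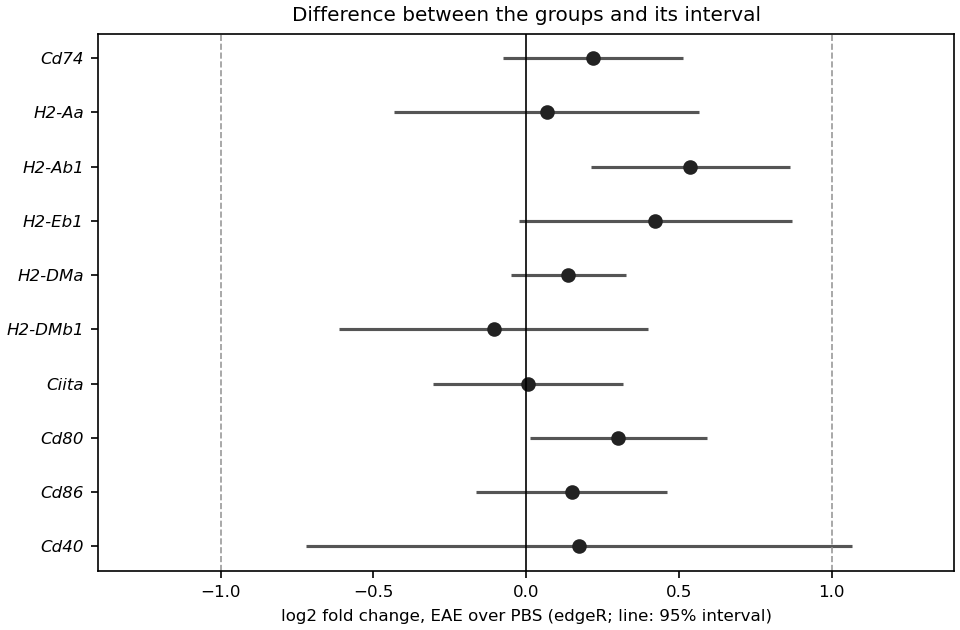
log2 fold change of EAE over PBS for the 10 genes (points) with 95% intervals (lines) from edgeR, with the 0 line solid and the study's fold threshold of 1 dashed on either side. The intervals of H2-Ab1 and Cd80 lie above 0, that of Cd40 is the widest and reaches past 1, and no gene passed after adjustment over all genes.

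Among the costimulatory genes, Cd80 (GRCm38 chr16:38455561-38496335, plus strand) had an FPKM of 0.899, 1.09 and 1.32 in EAE mice and 0.637, 0.817 and 1.13 in PBS-treated mice. Of the 8 PBS-treated mice, 5 lay below the lowest EAE mouse. The means were 1.09 ± 0.160 and 0.854 ± 0.168 (SD, n = 8 each, exact permutation p 0.0135). The log2FC was 0.30 (SE 0.139, 95% interval 0.012 to 0.59, edgeR adjusted p 0.265), with 0.092 within the closely alike libraries and 0.45 within the other 5 of each group. Cd86 (GRCm38 chr16:36603869-36666081, minus strand), the other ligand of CD28, ranged in FPKM over 1.59, 1.89 and 2.54 in EAE mice and over 0.971, 1.76 and 2.25 in PBS-treated mice. The groups overlapped over most of their ranges, and the log2FC was 0.15 (SE 0.151, 95% interval -0.17 to 0.46, edgeR adjusted p 0.660), with -0.24 and 0.41 within the closely alike and the other libraries.

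Cd40 (GRCm38 chr2:165055627-165072948, plus strand) was close to the limit of detection, with 3 to 27 reads in EAE mice and 6 to 27 in PBS-treated mice. Its FPKM was 0.0612, 0.202 and 0.615 in EAE mice and 0.124, 0.207 and 0.442 in PBS-treated mice. The lowest and the highest of the 16 values were both from EAE mice, whose coefficient of variation was 73.5% where counting alone would give 28.0%. The log2FC was 0.17 (SE 0.430, 95% interval -0.72 to 1.07, edgeR adjusted p 0.876), so a 2-fold rise was not outside what these libraries allow. On FPKM, 3 of the 10 genes (H2-Ab1, H2-Eb1 and Cd80) had an exact permutation p under 0.05, beside 18.4% of all genes tested, and 0 of 10 had groups that did not overlap, beside 0.263% of all genes. The FPKM scale itself placed the median gene 0.060 higher in EAE mice on the log2 scale.

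Ranked by mean FPKM, the order in EAE mice was Cd74, H2-DMa, H2-Ab1, Cd86, H2-Aa, H2-Eb1, H2-DMb1, Cd80, Ciita and Cd40. In PBS-treated mice it was Cd74, H2-DMa, Cd86, H2-Aa, H2-Ab1, H2-DMb1, Ciita, H2-Eb1, Cd80 and Cd40. Neighbours were compared within the mice by an exact sign-flip permutation test on log2 FPKM ratios, adjusted over the 18 neighbouring pairs. The steps from Cd74 to H2-DMa, from H2-DMa to the third gene and down to Cd40 passed in both groups (adjusted exact p 0.0281, and 0.0469 for Cd74 over H2-DMa in PBS-treated mice). The other 12 steps did not differ beyond the spread between mice (adjusted exact p 0.351 to 0.891). Neighbours were picked by the same FPKM values that were then tested. In reads, H2-DMa lay above Cd74, with 551 to 655 against 176 to 291 in EAE libraries. In PBS libraries the reads were 450 to 793 against 162 to 377. The order of Cd74 and H2-DMa thus rests on the scaling of FPKM to gene length, and reads of Brd2 may be among those of H2-DMa.

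**Figure D3:**
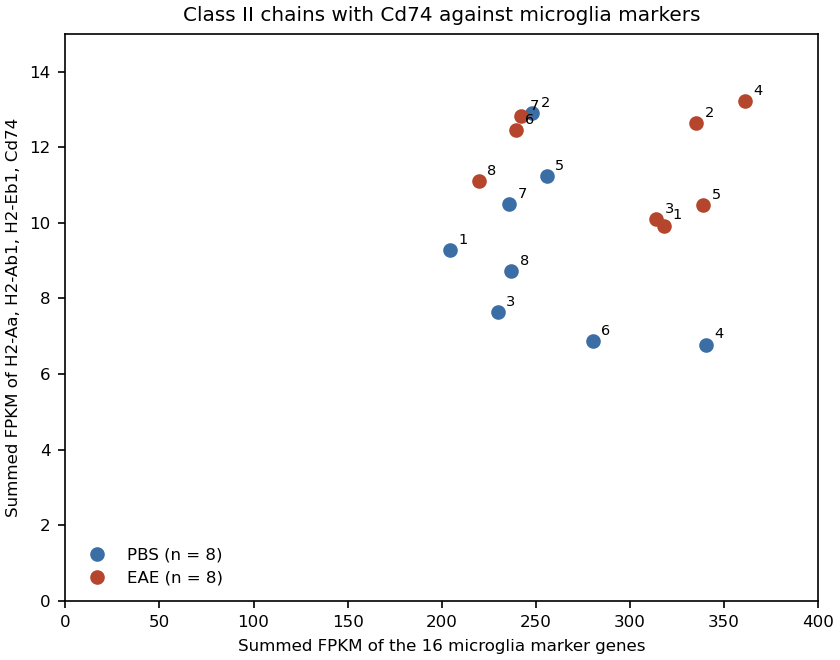
Summed FPKM of H2-Aa, H2-Ab1, H2-Eb1 and Cd74 (y axis) against summed FPKM of the 16 microglia markers (x axis) for each library, numbered by mouse, with EAE in red and PBS in blue. EAE 6, 7 and 8 have a class II sum like that of the other EAE mice at a lower microglia sum, and PBS 4 has the lowest class II sum at the highest microglia sum among PBS-treated mice.

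H2-Aa, H2-Ab1, H2-Eb1 and Cd74 together were also read against the microglia markers, since the libraries held RNA of other brain cells. Their summed FPKM was 9.92, 11.8 and 13.2 (lowest, median and highest) in EAE mice and 6.78, 9.004 and 12.9 in PBS-treated mice. As a percent of the summed microglia markers this was 3.09, 3.71 and 5.29 in EAE mice and 1.99, 4.03 and 5.20 in PBS-treated mice. The medians thus changed order between the readings, and the ranges overlapped in both. EAE 6, 7 and 8 stood at 5.06% to 5.29% and EAE 1 to 5 at 3.09% to 3.76%. The mean log2 ratio was 0.14 higher in EAE mice (-4.66 ± 0.340 against -4.80 ± 0.481, SD, n = 8 each), which did not pass (exact permutation p 0.513). With 1 library left out, the difference ran from 0.017 (without PBS 4, exact permutation p 0.920) to 0.215 (without PBS 2, exact permutation p 0.321). With libraries scaled to the microglia list in place of all genes, H2-Aa (-0.095), Ciita (-0.15) and Cd86 (-0.047) turned below 0, and H2-Ab1 remained at a log2FC of 0.38 with an edgeR adjusted p of 0.351. This scaling moved the median of all genes to -0.16.

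The marker lists of other class II-bearing cells had mean levels near that of the class II genes, except that of B cells. Single genes within the lists differed widely, so a list mean does not give the level of its cell type. Their mean FPKM per gene was 1.06 to 1.89 for border-associated macrophages, 0.937 to 1.57 for monocytes, 0.798 to 1.21 for dendritic cells and 0.0716 to 0.180 for B cells over the 16 libraries, compared with 1.43 to 2.25 for the 10 genes. The summed FPKM of the 8 dendritic cell markers was 6.55 to 9.65 in EAE mice and 6.38 to 8.95 in PBS-treated mice, that of the 8 B cell markers 0.651 to 1.44 and 0.573 to 1.33, that of the 10 markers of border-associated macrophages 10.7 to 18.9 and 10.6 to 15.3, and that of the 8 monocyte markers 8.07 to 12.5 and 7.49 to 11.5. In edgeR, 0 of the tested genes on these 4 lists were called, although 24 of the 32 tested had an estimate above 0 and 1, on the monocyte list, had an unadjusted p under 0.05. Over all genes tested, 2.42% were called, 52.7% had an estimate above 0 and 17.4% had an unadjusted p under 0.05. The monocyte markers lay higher in EAE mice in 7 of 8 genes, with a median log2FC of 0.44 and a median summed FPKM of 11.2 against 8.13, and Arg1 was the gene with the low p (log2FC 1.18, SE 0.335, adjusted p 0.0641). Defining markers ranged widely: on the dendritic cell list Xcr1 had 15 reads in all 16 libraries while Flt3 had 588 to 945 and Zbtb46 408 to 590 in each, and on the B cell list Ms4a1 had 5 reads in all while Pax5 had 25 to 63 in each. The highest monocyte marker, Vcan, had a mean FPKM of 5.29 in EAE and 5.32 in PBS-treated mice, against 0.427 and 0.304 for Ccr2. For border-associated macrophages the highest was Stab1, at 5.39 and 4.65, against 0.382 and 0.287 for Lyve1. Of the 10 neutrophil markers, 4 were called higher in edgeR (Ngp, Ltf, S100a8 and S100a9), beside 2.42% of all genes called, and the other 6 were not called. The summed FPKM of the 10 markers was 23.3 to 64.4 in EAE mice against 9.45 to 24.2 in PBS-treated mice. Whether any of these cells contributed to the class II values was not tested.

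The rest of the pathway was read from lists of 70 genes, of which 65 were tested. In edgeR, 1 gene was higher and 2 were lower in EAE mice at an adjusted p under 0.05, beside 2.42% of all genes, and the median log2FC was 0.13, with 47 estimates above 0 and 18 below, beside 52.7% above 0 over all genes. Ifi30, the thiol reductase GILT that unfolds disulfide-bonded antigens in the endosome, rose from a mean FPKM of 4.78 ± 0.395 to 7.78 ± 1.93 (SD, n = 8 each; log2FC 0.65, SE 0.131, edgeR adjusted p 0.0128). All but 1 EAE mouse lay above the highest PBS-treated mouse, from 5.15 to 11.1 against 4.16 to 5.46. The call held in 16 of 16 fits with 1 library left out, and was lost with scaling to the microglia list (log2FC 0.45, adjusted p 0.154) and within the closely alike (0.28, adjusted p 0.227) or the other libraries (0.85, adjusted p 0.0511). The annotation sets a transcript of unsettled status, 6330537M06Rik, on the opposite strand of Ifi30.

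Of the 6 endosomal processing genes tested, Ctsb, the protease cathepsin B, fell by 0.17 on the log2 scale (SE 0.0430, edgeR adjusted p 0.0397), from an FPKM of 99.7 ± 4.97 to 91.9 ± 4.36 (SD, n = 8 each). Ctsl, cathepsin L, had a log2FC of -0.17 without passing (edgeR adjusted p 0.201), and Ctss, cathepsin S, which trims the invariant chain in many presenting cells, had 0.11 (edgeR adjusted p 0.502). Jak1, a kinase of the interferon gamma receptor, fell by 0.15 (SE 0.0390, edgeR adjusted p 0.0480), from 33.0 ± 1.46 to 30.8 ± 1.06 FPKM. Jak2, on the same list, had a log2FC of -0.0074 (edgeR adjusted p 0.955). The calls of Ctsb and Jak1 held in 6 and 4 of 16 fits with 1 library left out, and both were lost with scaling to the microglia list, at larger differences of -0.33 and -0.31 (edgeR adjusted p 0.202 and 0.242), and within the other 5 libraries of each group (-0.15 and -0.13, adjusted p 0.417 and 0.450). Both held within the closely alike libraries (-0.21 and -0.18, edgeR adjusted p 1.86e-05 and 0.000566), where 4147 of 17239 genes were called. Jak1 was also lost with DESeq2 size factors, both other filters and robust estimation (edgeR adjusted p 0.0511 to 0.0580). With the replicate number as a block, Ctsb and Jak1 were both lost (edgeR adjusted p 0.0642 and 0.0632).

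**Figure D4:**
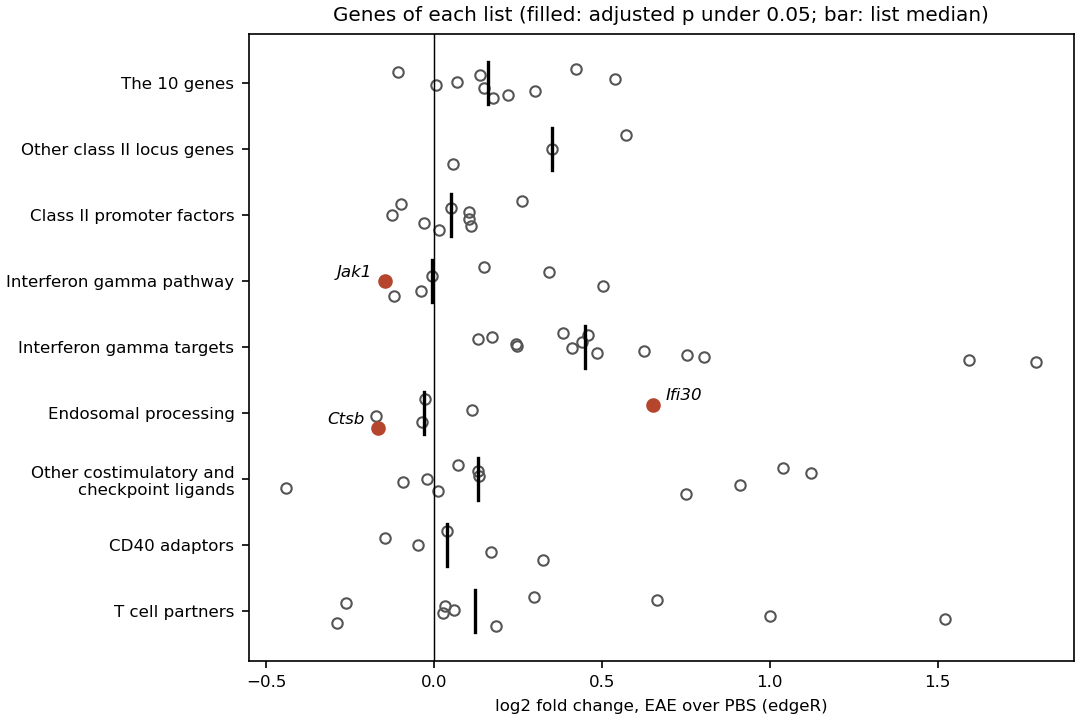
log2 fold change of EAE over PBS (x axis, edgeR) for each tested gene of the set and of the pathway lists (1 point per gene, rows by list), filled where the adjusted p was under 0.05, with the list median as a bar. Ifi30, Ctsb and Jak1 are the filled points, and all 14 interferon gamma targets lie to the right of 0.

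Interferon gamma targets, the guanylate-binding proteins, immunity-related GTPases, proteasome subunits and chemokines that the cytokine induces, lay above 0 in 14 of 14 genes, with a median log2FC of 0.45, although 0 were called in edgeR. Of the 14, 5 had an unadjusted p under 0.05, beside 17.4% of all genes, of which 52.7% lay above 0. Gbp7 had a log2FC of 0.41 (edgeR adjusted p 0.0771), Cxcl10, a T cell attractant, 1.79 (adjusted p 0.0883) and Gbp3 0.75 (adjusted p 0.127). Cxcl10 ran from an FPKM of 1.85 to 13.9 in EAE mice and from 0.0948 to 4.17 in PBS-treated mice. Ifng itself had 13 reads in all 16 libraries and was not tested. In the receptor pathway, 0 of the 7 tested genes were called higher, with Irf1 at 0.50 (adjusted p 0.250).

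The 9 factors of the class II promoter gave 0 calls in edgeR and a median log2FC of 0.051, with Spi1, the myeloid factor PU.1, at 0.26 (adjusted p 0.261) and the NF-Y subunit genes Nfyc at -0.12 (adjusted p 0.326) and Nfyb at 0.10 (adjusted p 0.452). At an unadjusted p under 0.05 the list held 1 gene, Spi1, beside 17.4% of all genes. H2-Oa and H2-Ob, which encode the inhibitor of H2-DM, had log2FC of 0.35 (SE 0.572) and 0.57 (SE 0.698) on at most 12 and 19 reads per library, and H2-Eb2 had 13 reads in all. Of the other costimulatory and checkpoint ligands, 0 of 11 tested were called in edgeR and 2 had an unadjusted p under 0.05, a share near the 17.4% of all genes, with Cd274, which encodes PD-L1, at 0.75 (adjusted p 0.145), Tnfsf9, the ligand of 4-1BB, at 1.04 (adjusted p 0.228) and Pdcd1lg2, which encodes PD-L2, at 1.12 (adjusted p 0.386).

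On the T cell side, 0 of the 10 tested partner genes were called in edgeR and 1, Cd3e, had an unadjusted p under 0.05 (log2FC 1.52, SE 0.699, adjusted p 0.239). Among all genes, 17.4% had such an unadjusted p. Cd3e had 1 to 13 reads in EAE mice and 0 to 9 in PBS-treated mice. Lag3, a receptor for class II, was at -0.26 (adjusted p 0.456) and Pdcd1 at 0.66 (adjusted p 0.493). Cd40lg, the ligand of CD40, had 8 reads, all from 4 EAE libraries. None of the 5 CD40 adaptor genes was called or had an unadjusted p under 0.05 in edgeR, with Traf2 at 0.17, Traf1 at 0.32 and Traf3 at -0.048 (adjusted p 0.374, 0.424 and 0.629).

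The genes whose pattern over the 16 libraries was most like the mean of H2-Aa, H2-Ab1, H2-Eb1 and Cd74 were, by Spearman's rho, Mat2b (0.84), Tgfbr2 (0.83), Gjb2 (0.82), Plxnb2 (0.82), S100a6 (0.81), Dnttip1 (0.80), Il17rd (0.80), Trp53tg5 (0.80), Il13ra1 (0.79) and Ptx3 (0.78), out of 15095 candidates. The values are the highest of many, share the libraries' depth and composition, and are given without a test. Of these 10 genes, S100a6 was called in edgeR (log2FC 0.47, adjusted p 0.0281).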

How the data were processed

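RNA was sequenced as ribosome-depleted stranded libraries from 16 mice. The authors aligned reads with HISAT2 2.1.0 and counted them per gene with HTSeq 0.11.2 (versions from the submitters' processing notes, build GRCm38 from the study's methods); the deposited counts are raw. The deposited FPKM values by the authors follow from these counts, as checked over 7749 genes. Differences were computed with edgeR 4.0.16 (TMM, quasi-likelihood test, genes with at least 16 counts in total, Benjamini-Hochberg adjustment over 17885 genes) in R 4.3.3, with DESeq2 1.42.0 as an alternative. The edgeR and permutation scripts were checked on simulated data. FPKM was compared by exact two-sided permutation over 12870 divisions of the mice, whose smallest p is 0.000155; for 8 sign-flipped pairs it is 0.00781. Correlations used 100000 resamples. Each library is 1 mouse. The sources used here name no pairing of the mice by replicate number, and the reported fit used none. Positions are from the GENCODE annotation of GRCm38. The genes and lists were chosen with earlier results of these data known. Named genes are the 10, in each list those with adjusted p under 0.05 and otherwise the 3 with the smallest p, and the 10 most alike in pattern. A result that this rule or the lists would bring in is not reported here. Any other gene named was chosen after its values were seen. March1 and March8 were not used, because symbols of that family appear as dates. Alternatives were DESeq2 size factors, other filters, robust estimation, scaling to the microglia list, a term for the 2 sets of closely alike libraries, fits within them, the replicate block, other pseudocounts (0.1 and 1 on FPKM) and leaving out each library.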

Additional observations from a re-analysis of the deposited data

Results flagged for a closer look

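The FPKM of H2-DMa in PBS 4 was 4.06, with the next PBS-treated mouse at 2.95, a gap of 0.730 of the group's range, past Dixon's 95% critical value for 8 samples. It was the only value to stand apart in this way among 24 groups of values checked, and chance alone marks about 1 in 20.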

How the results depend on the processing

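The call of 0 of 10 genes with both thresholds held in all 26 alternatives. At the adjusted p alone, 1 gene was called in each of DESeq2, the closely alike libraries and the fit without EAE 5, so leaving out 1 library gave 0 to 1. With the replicate number as a block (replicate block), 0 of 10 genes and 517 of all genes were called, compared with 433 in the reported fit; the same-numbered mice deviated together at r from -0.225 to 0.529. Over all genes, DESeq2 called 897, the fit with a term for the 2 sets of libraries 768, scaling to the microglia list 37, the closely alike libraries 4147 and the other 5 of each group 13, and fits without 1 library 144 to 1317. Pathway genes called numbered 3 as reported, 8 with the term for the sets, 0 with microglia scaling, 14 and 0 within the closely alike and the other libraries, and 1 to 6 without 1 library. The cause of these shifts was not tested. Signs turned with microglia scaling in H2-Aa (-0.095), Ciita (-0.15) and Cd86 (-0.047), within the closely alike libraries in H2-Eb1 (-0.088), Cd86 (-0.24) and Cd40 (-0.049), and within the other 5 in H2-DMb1 (0.060) and Ciita (-0.099). Without 1 library, log2FC ran from -0.021 to 0.19 in H2-Aa, -0.053 to 0.086 in Ciita, -0.094 to 0.38 in Cd40 and -0.21 to 0.051 in H2-DMb1, and the EAE minus PBS difference in FPKM from -0.00733 to 0.0892 in Ciita, -0.00495 to 0.0742 in Cd40 and -0.123 to 0.0847 in H2-DMb1. The r of Cd74 with H2-Aa was 0.703 (permutation p 0.0483) in PBS-treated mice on log2(FPKM + 0.1) and ran from 0.535 to 0.839 without 1 library, that with H2-Ab1 from 0.0265 (without PBS 2) to 0.733 (without PBS 5), that with H2-Eb1 from 0.287 to 0.836, and that with H2-Aa in EAE mice from -0.353 to 0.638. Depth limits H2-Aa, H2-Ab1, H2-Eb1, H2-DMb1 and Cd40 most, with at most 82 reads in a library.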
